A study of Homo sapiens
Mus musculus and Mus musculus and Homo sapiens with 16 samples.

Results

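SPN, SELPLG, CD164, CD24 and PTPRC encode heavily glycosylated proteins of the leukocyte surface, and they were followed in REC-1 cells, a human mantle cell lymphoma (MCL) line, with and without contact with stromal cells. The members were taken as these 5 gene symbols in the human count table, where each symbol matched 1 of 58051 genes. They had been selected on their CPM and fold changes in the Sep, Susp and Adh libraries, which were known from earlier results, so their differences between REC-1 groups are described here without p-values, and they support nothing by themselves.

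The study asked how contact with stroma alters gene expression in MCL cells. REC-1 cells were kept for 24 h as a monoculture (Sep) or in coculture with MS-5, a mouse bone marrow stromal line, and the coculture gave a suspension fraction (Susp) and a fraction adherent to the stroma (Adh). MS-5 cells without lymphoma cells were the stromal control. Each group had 4 libraries, 16 in all, from untreated, unmodified lines. The labels do not say whether the libraries of a group came from separate cultures, while the study's figure legends describe separate experiments. Adh RNA was extracted together with that of the stroma underneath and its reads were split by species in silico, so human counts describe the REC-1 cells and mouse counts the MS-5 cells of the same library. In RNA from whole cultures, fewer cells that carry a transcript and less of the transcript per cell cannot be told apart.

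Mucin-type proteins carry dense rows of sugar chains on serine and threonine residues, and sialic acid at the ends of these chains gives the cell surface a negative charge. SPN encodes CD43 (leukosialin), a long, rod-like sialomucin that can hinder contact between leukocytes and other cells. SELPLG encodes PSGL-1, the main ligand of P-selectin, and CD164 encodes endolyn, a sialomucin known from hematopoietic progenitor cells. CD24 is a very short, lipid-anchored mucin-like protein of B-cells that is bound by Siglec-10. PTPRC encodes CD45, the receptor tyrosine phosphatase of leukocytes that acts on Src family kinases and carries O-glycans on its outermost part.

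The members differ in how densely their coding sequences hold serine and threonine. The stretches shown here are the 30 codons with most serine and threonine codons in each coding sequence, shown because they encode the residues that O-glycans can attach to. They were read from the MANE Select transcripts of the GENCODE annotation on GRCh38, 5′ to 3′ on the coding strand, and capitals mark each serine or threonine codon (TCN, AGT, AGC and ACN, read in frame).
SPN (chr16:29664134-29664223, + strand, exon 2 of 2, codons 136 to 165): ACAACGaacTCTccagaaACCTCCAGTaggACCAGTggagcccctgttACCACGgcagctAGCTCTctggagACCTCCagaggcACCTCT
SELPLG (chr12:108624035-108624124, - strand, exon 2 of 2, codons 62 to 91): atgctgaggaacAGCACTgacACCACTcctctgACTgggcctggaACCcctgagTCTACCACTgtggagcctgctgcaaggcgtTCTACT
CD164 (chr6:109368965-109370447, - strand, spliced from exons 5 and 6 of 6, codons 131 to 160): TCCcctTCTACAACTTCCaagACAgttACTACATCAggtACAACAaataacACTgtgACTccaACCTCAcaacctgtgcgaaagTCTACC
CD24 (chr6:106971739-106971828, - strand, exon 2 of 2, codons 26 to 55): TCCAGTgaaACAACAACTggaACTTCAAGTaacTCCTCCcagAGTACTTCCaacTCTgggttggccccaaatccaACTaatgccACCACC
PTPRC (chr1:198702524-198704479, + strand, spliced from exons 6 to 8 of 33, codons 193 to 222): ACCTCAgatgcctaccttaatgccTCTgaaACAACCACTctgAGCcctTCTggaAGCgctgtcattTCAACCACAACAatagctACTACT

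These windows held 16 such codons in SPN, 11 in SELPLG, 17 in CD164, 17 in CD24 and 15 in PTPRC, against a median of 9 in the best window of 19028 protein-coding genes. Over the whole coding sequence, serine and threonine took 112 of the 400 codons in SPN, 57 of 197 in CD164 and 24 of 80 in CD24. Shares as high as that of SPN were uncommon, since 99.8% of the genes had a lower one. SELPLG reached 21.8% and PTPRC 15.8%, against a median of 12.8% over all genes. The members were not alike in this, since the best window of SELPLG exceeded that of 73.3% of genes and the whole share of PTPRC that of 83.3%. In SPN the dense part took up most of the sequence, whereas in PTPRC, with 1306 codons, it lay near the beginning.

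**Figure D1:**
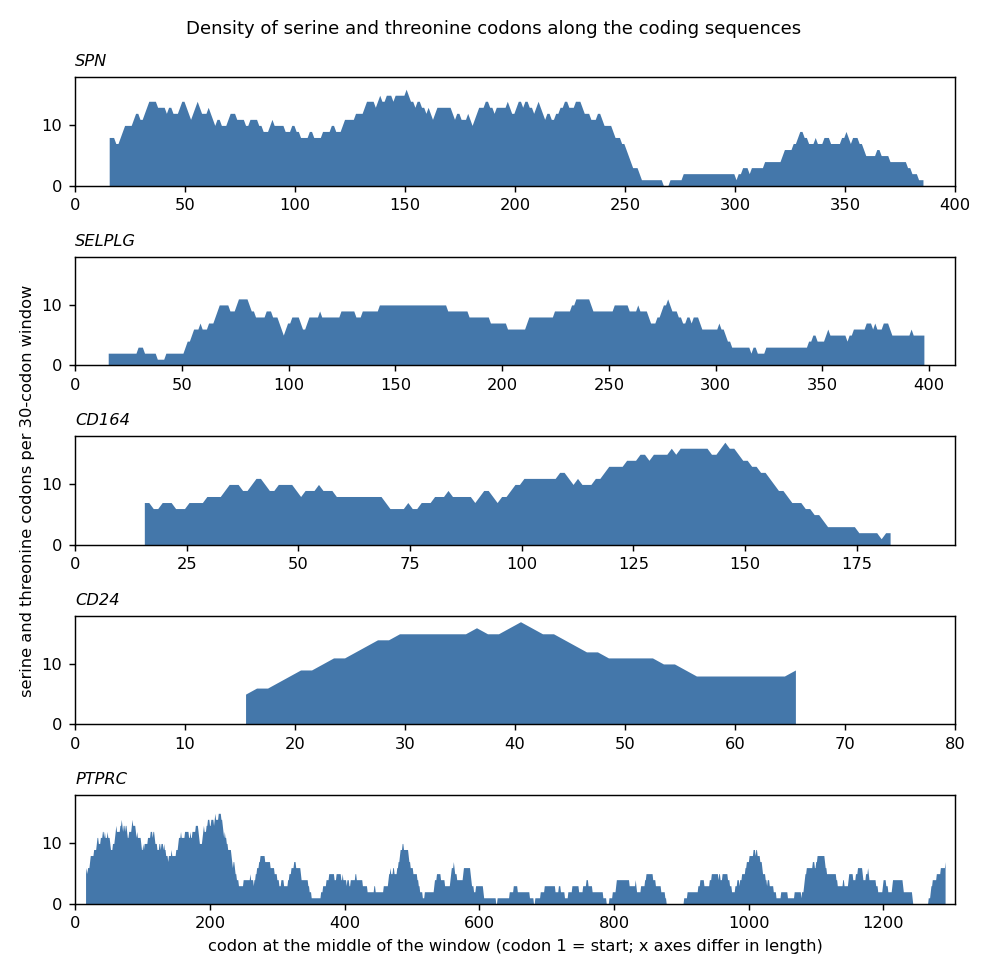
Serine and threonine codons per window of 30 codons (y axis) against the codon in the middle of the window (x axis, 1 panel per gene, x axes differing in length). The best window reached 16 codons in SPN and 17 in CD164 and CD24, and in PTPRC the high values lay near the start of a sequence of 1306 codons.

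The REC-1 libraries held 9325412 to 12597891 human counts in Sep, 15000927 to 21467832 in Susp and 7758979 to 13241751 in Adh, and human counts were 18.3% to 28.2% of all counts in the Adh libraries. All 8 B-cell markers, among them MS4A1, CD79A and CCND1, were at 10 CPM or more (counts scaled to a common library size) in each REC-1 group. None of 10 T, NK or myeloid cell markers and 1 of 9 stromal markers (VIM) reached that level. MS-5 cells had 7 of the 9 stromal markers at 10 CPM or more, while Thy1 and Dcn were at 0 counts. Of the other lists, 1 of 8 B-cell markers (Ccnd1) and 1 of 10 T, NK or myeloid cell markers (Cd14) reached that level in MS-5 cells. Transcripts of the mitochondrial genome made up 0.362% to 0.683% of human counts in Adh against 1.31% to 2.17% in Sep and Susp libraries. Susp replicate 2 stood apart from its group, with PAX5 at 549.5 CPM against 833.4 to 934.1 in the others and CD79B at 888.9 CPM against 593.4 to 662.2, so fitted differences of the members that rest on Susp cells are also given without it.

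SPN stepped down from Sep to Susp and again from Susp to Adh cells. SPN (ENSG00000197471, GRCh38 chromosome 16, 29662979 to 29670876, + strand) was at 90.1, 95.1, 106.9 and 93.7 CPM in the Sep libraries, at 79.1, 67.7, 73.5 and 71.3 CPM in Susp and at 51.9, 48.8, 53.4 and 53.6 CPM in Adh. The means were 96.5 ± 7.28, 72.9 ± 4.74 and 51.9 ± 2.23 CPM (SD, n = 4 each), from 416 to 1520 counts per library. Every Sep library was above every Susp library, and every Susp library was above every Adh library. Such an order was found in 12 of 12861 genes tested (0.0933%), and the opposite order in 11 (0.0855%). SPN was chosen with these values known, so nothing is read from its place among them. Besides SPN, the 12 comprised SUGP2, CTD-3092A11.2, C4orf32, CYP4F29P, ZNF70, IGKJ3, IGKJ5, HOXB3, FRMPD1, RP4-801G22.2 and RP4-657D16.3, a list that was put together after its values were seen.

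**Figure D2:**
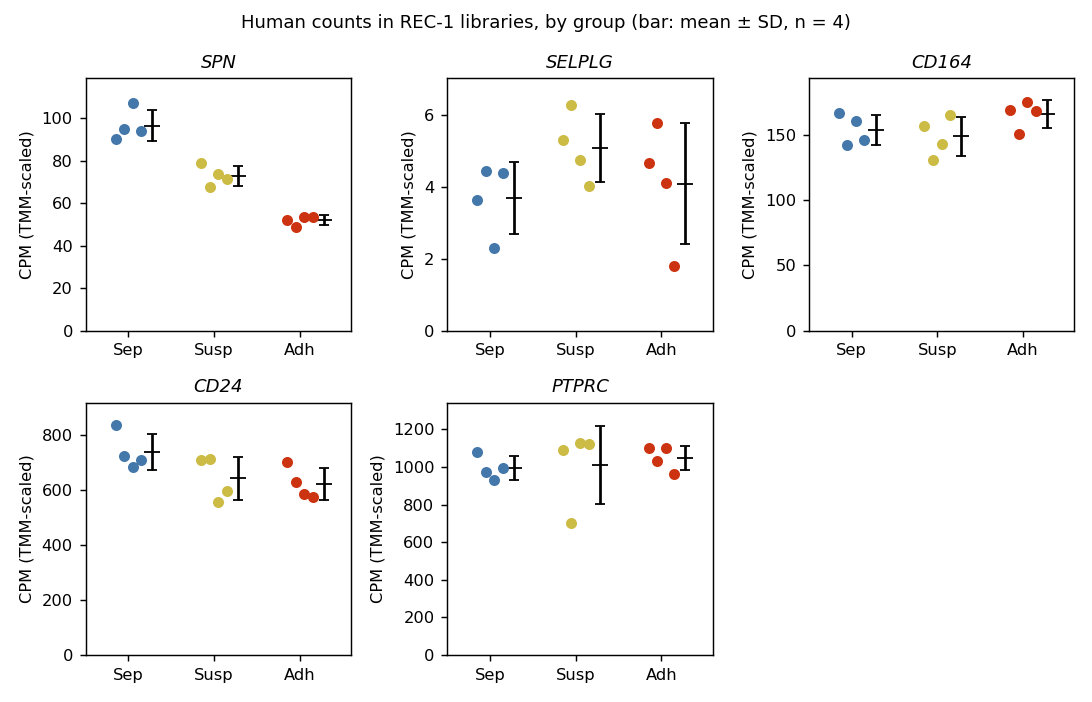
Human CPM (y axis, TMM-scaled, from 0) of the 5 members in the Sep, Susp and Adh libraries of REC-1 cells. Points are libraries and bars the mean ± SD (n = 4). SPN forms 3 separate steps around 96.5, 72.9 and 51.9 CPM, and PTPRC has 1 low Susp library at 700.9 CPM.

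The fitted log2 fold change of SPN was -0.40 (SE 0.086) in Susp against Sep, -0.49 (SE 0.088) in Adh against Susp and -0.89 (SE 0.088) in Adh against Sep cells. By the last, SPN in adherent cells was at 0.538 times its level in the monoculture. Without Susp replicate 2, the Susp mean was 74.6 ± 4.02 CPM (SD, n = 3) and the differences were -0.38, -0.51 and -0.89. By the call rule (edgeR adjusted p over all genes up to 0.05, with a change of 1.5 times or more), SPN was the 1 member of 5 called in Adh against Sep, where 2.4% of the genes tested were called, 1.82% as lower. In Adh against Susp (0.778% of genes called) and in Susp against Sep (0.731%), 0 of 5 members were called, with DESeq2 also 0. Since the members were chosen with these contrasts in view, nothing is read from these counts. SPN had the lower value in Adh under each of 20 alternative settings, between -0.92 and -0.84 against Sep and between -0.51 and -0.45 against Susp.

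Exons of SPN overlap those of QPRT, a gene of NAD synthesis on the same strand, in the GENCODE annotation used here. The authors counted over an ENSEMBL annotation, in which the overlap was not checked. QPRT had 25 to 88 counts per library, and how reads over both genes were assigned is not given in the sources used here. How many reads fell on the shared exons was not measured here. In the Adh libraries, 72.3% ± 6.43 (SD, n = 4) of the SPN reads were assigned to human and the remainder, 134 to 216 counts, to mouse Spn. The part that species assignment and the overlap had in the lower SPN counts of Adh libraries was not tested.

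**Figure D3:**
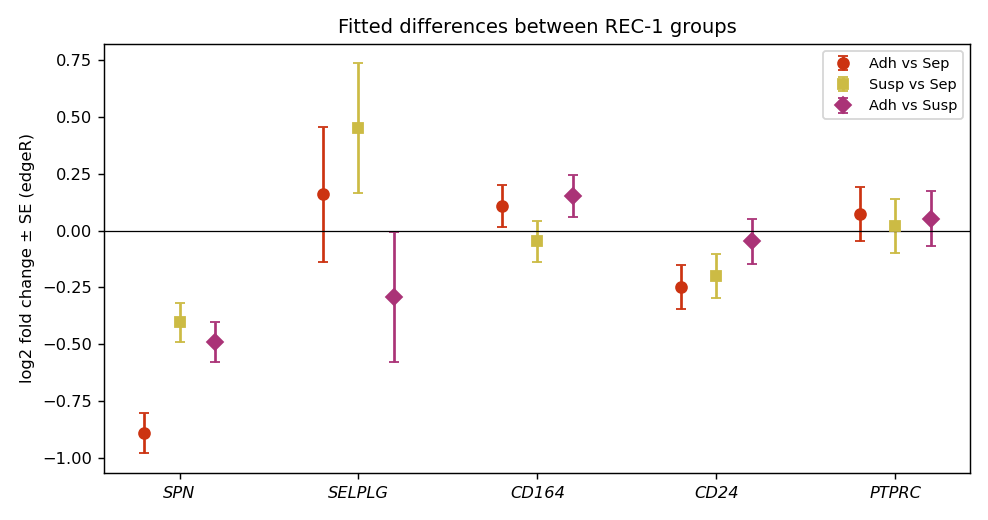
Fitted log2 fold changes (y axis, edgeR, bars ± SE) of the members for Adh against Sep, Susp against Sep and Adh against Susp. SPN is below 0 in all 3 comparisons, down to -0.89 in Adh against Sep, and CD164, CD24 and PTPRC lie between -0.25 and 0.15.

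SELPLG, the P-selectin ligand, was the least abundant member. SELPLG (ENSG00000110876, chromosome 12, 108621895 to 108633894, - strand) was at 3.62, 4.43, 2.30 and 4.39 CPM in Sep, at 5.31, 6.27, 4.74 and 4.03 CPM in Susp and at 4.66, 5.78, 4.11 and 1.80 CPM in Adh libraries. With 14 to 102 counts per library the groups overlapped in each comparison. The means were 3.69 ± 0.995, 5.09 ± 0.947 and 4.09 ± 1.68 CPM (SD, n = 4 each). Fitted differences were 0.45 (SE 0.28) for Susp against Sep, 0.16 (SE 0.30) for Adh against Sep and -0.29 (SE 0.29) for Adh against Susp, and 0.33, 0.17 and -0.16 without Susp replicate 2.

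CD164 was at close levels in the 3 groups. CD164 (ENSG00000135535, chromosome 6, 109366514 to 109382467, - strand) was at 167.1, 142.7, 160.7 and 146.2 CPM in Sep, at 157.0, 131.2, 143.4 and 165.2 CPM in Susp and at 169.4, 150.5, 175.6 and 168.6 CPM in Adh libraries. Their means, 154.2 ± 11.6, 149.2 ± 14.98 and 166.0 ± 10.8 CPM (SD, n = 4 each), differed by about the spread between replicates or less. The log2 fold changes were -0.05 (SE 0.092) in Susp and 0.11 (SE 0.093) in Adh cells against Sep, and 0.15 (SE 0.092) between Adh and Susp cells, and without Susp replicate 2 the first was -0.00074 and the last 0.11.

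CD24 had a slightly higher mean in the monoculture than in either coculture fraction, and the groups overlapped. CD24 (ENSG00000272398, chromosome 6, 106969831 to 106975627, - strand) was at 837.2, 727.0, 686.3 and 711.2 CPM in Sep, at 708.9, 713.1, 558.4 and 598.5 CPM in Susp and at 702.2, 630.3, 586.0 and 576.3 CPM in Adh libraries. The means were 740.4 ± 66.6, 644.7 ± 78.3 and 623.7 ± 57.4 CPM (SD, n = 4 each). Against Sep the log2 fold change was -0.20 (SE 0.098) in Susp, or -0.26 without Susp replicate 2, and -0.25 (SE 0.098) in Adh cells. Between Adh and Susp cells it was -0.05 (SE 0.098), and 0.02 without Susp replicate 2. Processed copies of CD24 elsewhere in the genome took few reads, at most 7 counts in a library and 26 counts over all REC-1 libraries for 3 pseudogenes, against 102486 counts for CD24. Only uniquely mapped reads were counted, so reads that fit a copy equally well are missing from the CD24 level.

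PTPRC was the member with most counts, and its groups overlapped with all 12 libraries. PTPRC (ENSG00000081237, chromosome 1, 198638457 to 198757476, + strand) was at 1081, 970.9, 932.3 and 996.2 CPM in Sep, at 1088, 700.9, 1126 and 1124 CPM in Susp and at 1099, 1031, 1099 and 962.3 CPM in Adh libraries. Apart from Susp replicate 2, which was far below its group, all REC-1 libraries lay between 932.3 and 1126 CPM, and the other Susp libraries, at 1088 to 1126 CPM, were above every Sep library. Susp replicate 2 stood out on PTPRC itself, so nothing is read from PTPRC differences that leave it out. The means of Sep and Adh were 995.0 ± 62.9 and 1048 ± 65.3 CPM (SD, n = 4 each), and that of Susp was 1010 ± 206.6 CPM (SD, n = 4), or 1113 ± 21.6 CPM (SD, n = 3) without replicate 2. The log2 fold change of Adh against Susp was 0.05 (SE 0.12) with this library and -0.07 (SE 0.064) without it, and that of Susp against Sep 0.02 (SE 0.12) and 0.15 (SE 0.064). Adh and Sep cells differed by 0.07 (SE 0.12). The counts are per gene and do not separate the splice forms of CD45.

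Non-overlapping libraries were common among all genes. Libraries of the groups did not overlap for 11.4% of the genes tested in Adh against Susp, 11.3% in Susp against Sep and 15.7% in Adh against Sep. Of the 5 members, SPN alone had groups that did not overlap with all 12 libraries, in all 3 comparisons. Without Susp replicate 2, PTPRC did not overlap either in Susp against Sep. That library stood out on PTPRC itself, and the shares of all genes given here are with all libraries. Nothing is therefore read from this. The comparisons share their libraries, so that a value in one is not independent of a value in another.

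Compared per kilobase of annotated exon (RPKM), CD24 was the highest of these genes, at 239.1 ± 21.5 in Sep, 208.2 ± 25.3 in Susp and 201.5 ± 18.5 RPKM in Adh cells (SD, n = 4 each). PTPRC was next, at 64.5 ± 4.07, 65.4 ± 13.4 and 67.9 ± 4.23 RPKM, with no library of one gene inside the range of the other. CD164 followed at 22.5 ± 1.69, 21.7 ± 2.18 and 24.2 ± 1.58 RPKM. SPN was at 13.1 ± 0.986, 9.87 ± 0.643 and 7.04 ± 0.302 RPKM, and each SPN library was below each CD164 library. SELPLG was last at 1.31 ± 0.354, 1.81 ± 0.337 and 1.45 ± 0.596 RPKM. The lengths are those of all annotated exons merged, which is longer than any 1 transcript, so the order of genes that lie close is approximate. Distances between genes are approximate too. The merged length was 15436 bases for PTPRC, whose coding sequence has 1306 codons, and 3096 bases for CD24. Non-overlap of libraries does not cover this error of length.

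The genes whose course over the 12 REC-1 libraries was most like that of SPN were found from the root-mean-square difference in log2 CPM after each gene was centred at its mean. Over 8492 genes with a mean of at least 10 CPM, the median of this difference was 0.42. The smallest were those of MANBA (0.139), a lysosomal mannosidase, CTD-3092A11.2 (0.140), a noncoding RNA, DCAF8 (0.142), an adaptor of ubiquitin ligases, EZH1 (0.150), a histone methyltransferase, and ZNF589 (0.150), a zinc finger protein. MANBA was at 29.8 ± 2.52 CPM in Sep, 26.8 ± 1.90 CPM in Susp and 17.7 ± 0.540 CPM in Adh cells (SD, n = 4 each). CTD-3092A11.2 was at 36.2 ± 2.84, 27.5 ± 1.90 and 22.0 ± 1.36 CPM in the same groups. These genes were picked for likeness, and their differences are descriptions.

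**Figure D4:**
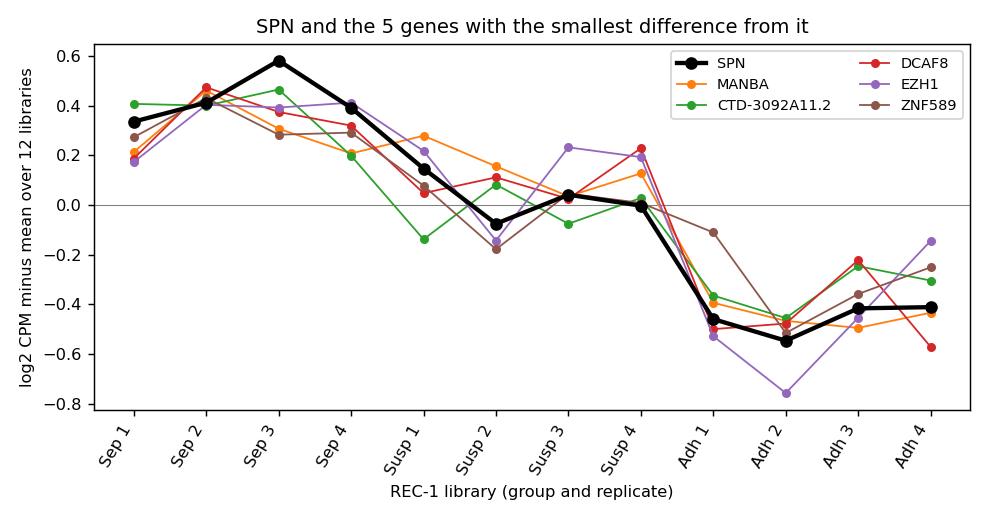
Log2 CPM minus the mean over 12 libraries (y axis) of SPN (black) and the 5 genes with the smallest root-mean-square difference from it, by REC-1 library (x axis). All 6 genes lie above 0 in the Sep and below 0 in the Adh libraries; their differences from SPN were 0.139 to 0.150.

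MS-5 cells carry their own copies of these genes, which allowed a test on counts that the choice of members had not used. No counterpart was called between MS-5 cells under adherent lymphoma cells and MS-5 cells alone (edgeR). Of 12201 mouse genes tested, 0.205% were called. Mouse Cd164 (ENSMUSG00000019818, GRCm38 chromosome 10, 41519414 to 41531048) was at 766.8, 728.1, 678.8 and 700.9 CPM alone and at 844.1, 751.5, 780.3 and 768.0 CPM in Adh libraries, and the groups overlapped. Its log2 fold change was 0.13 (SE 0.052, edgeR adjusted p = 0.347). Cd24a (ENSMUSG00000047139, chromosome 10, 43578284 to 43584265) was at 513.7, 596.4, 473.1 and 543.3 CPM alone and at 470.8, 463.6, 443.9 and 411.6 CPM in Adh libraries. Each Adh library was below each library of MS-5 cells alone, as for 3.68% of mouse genes, but the difference of -0.25 (SE 0.066) did not pass the test (edgeR adjusted p = 0.116).

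Mouse Spn (ENSMUSG00000051457, chromosome 7, 127132232 to 127137823) was low in the stroma. It was at 4.46, 3.78, 5.67 and 5.32 CPM in MS-5 cells alone and at 6.32, 4.56, 6.21 and 6.29 CPM in Adh libraries, from 38 to 216 counts. The log2 fold change was 0.27 (SE 0.17, edgeR adjusted p = 0.592), and Adh replicate 2 lay within the range of MS-5 cells alone. Thus 0 of the 3 counterparts that could be tested were called, against 2 at an unadjusted p below 0.05 (Cd164 and Cd24a) and 0 with DESeq2. Mouse Selplg and Ptprc had 0 counts in all 8 libraries. If each count were independent, this would allow at most 0.0867 to 0.297 CPM per library (3 counts, counting error only). Both mates of a pair appear to have been counted, so the limit is higher where they were.

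**Figure D5:**
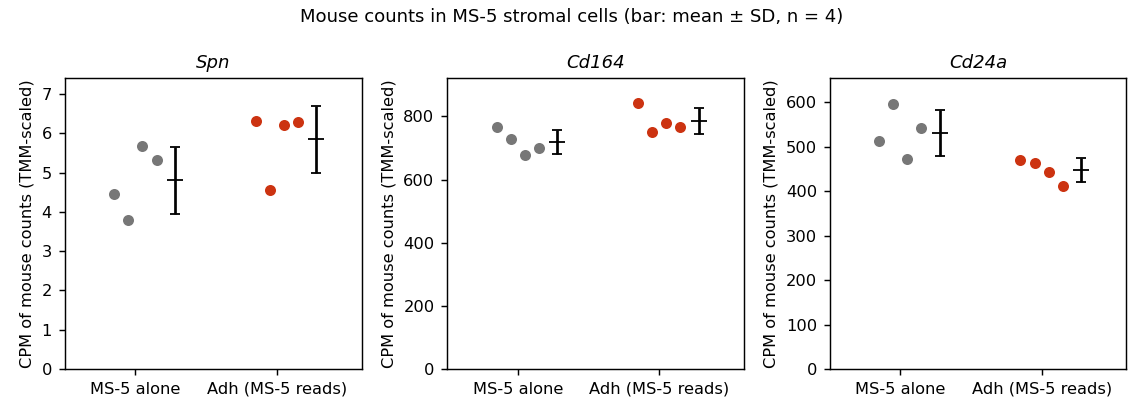
Mouse CPM (y axis, TMM-scaled, from 0) of Spn, Cd164 and Cd24a in MS-5 cells alone and in the mouse part of the Adh libraries. Points are libraries and bars the mean ± SD (n = 4). Cd24a is lower in each Adh library than in each library of MS-5 cells alone, and Adh replicate 2 of Spn, at 4.56 CPM, is apart from the others.

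Human and mouse reads of 1 Adh library also give the share that each member received from REC-1 cells. Human reads made up 23.2% ± 4.71 of all counts, 5.97% ± 1.19 of CD164 counts and 29.5% ± 6.40 of CD24 counts (SD, n = 4 each). The share was 72.3% for SPN and 100% for PTPRC and SELPLG, of which no mouse count was seen. The transcripts in the Adh libraries thus ranged from CD164, of which most counts were stromal, to PTPRC and SELPLG, of which all were assigned to the lymphoma cells.

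Around the members, 88 genes in 7 lists were examined (other mucin-type proteins, selectins and an E-selectin ligand, enzymes of O-glycan synthesis and of the addition and removal of sialic acid, fucose and sulfate, lectins and receptors that bind the members, membrane linkers and shedding proteases, and Src family kinases with phosphatases). Of these, 68 were expressed well enough in REC-1 cells to be tested. In Adh against Susp cells 1 of the 68 was called (against 0.778% of all genes tested), PILRB as lower, with a median log2 fold change over the 68 of 0.02 against -0.01 for all genes. In Susp against Sep cells 1 was called (against 0.731% of all genes tested), LCK as higher, with medians of 0.03 and -0.01. In Adh against Sep cells 2 were called (against 2.4% of all genes tested), LCK as higher and PILRB as lower, with medians of 0.05 and 0.00. GLG1, which encodes an E-selectin ligand, was the 1 gene of its list tested, at 92.0 ± 2.26, 80.8 ± 11.01 and 80.2 ± 5.32 CPM in Sep, Susp and Adh cells (SD, n = 4 each). The difference of GLG1 between Adh and Sep was -0.20 on the log2 scale (SE 0.10, edgeR adjusted p = 0.291), and -0.19 without Susp replicate 2 (SE 0.068, edgeR adjusted p = 0.0790).

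None of the tested enzymes that build the glycans of the members passed the call rule. Of O-glycan start and branching, 13 genes were tested, and none of the 13 was called in any comparison (edgeR), with 1, 2 and 3 at an unadjusted p below 0.05 in Adh against Susp, Susp against Sep and Adh against Sep and 0 with DESeq2. GALNT1, which attaches the first sugar to serine and threonine and was the highest of the list per length, was at 189.1 ± 24.2, 200.4 ± 20.7 and 226.9 ± 19.8 CPM in Sep, Susp and Adh cells (SD, n = 4 each), and Adh and Sep differed by 0.26 on the log2 scale (SE 0.10, edgeR adjusted p = 0.165). None of 19 genes that add, supply or remove sialic acid or add fucose or sulfate was called either, with 3 at an unadjusted p below 0.05 in each comparison, and DESeq2 called 1 of them in Susp against Sep. Among them CMAS, which activates sialic acid for transfer, was at 132.7 ± 9.87, 137.7 ± 7.23 and 138.9 ± 7.402 CPM (SD, n = 4 each). The median log2 fold changes of these lists were between -0.07 and 0.14, against values between -0.01 and 0.00 for all genes. Without Susp replicate 2, some of these genes passed the adjusted p threshold in Adh against Sep but not the fold minimum. They were B4GALT1 (0.38, edgeR adjusted p = 0.00435), ST6GAL1 (0.28, edgeR adjusted p = 0.0130) and GALNT7 (-0.34, edgeR adjusted p = 0.0487), named after their values were seen.

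No other mucin-type protein was called among the 5 tested, and their median log2 fold changes were -0.16, 0.30 and -0.01 in Adh against Susp, Susp against Sep and Adh against Sep (edgeR; 2, 3 and 0 at an unadjusted p below 0.05 in the same order of comparisons, and 0 with DESeq2). CD52, a short glycoprotein of lymphocytes and the highest of the list per length, was at 58.1, 50.9, 51.1 and 48.2 CPM in Sep, at 70.0, 99.0, 67.0 and 61.7 CPM in Susp and at 61.1, 60.7, 60.6 and 62.6 CPM in Adh libraries. Each Susp library was above each Sep library, and the highest value was that of Susp replicate 2. Among all genes tested, 11.3% did not overlap between these groups. The log2 fold change of CD52 in Susp against Sep was 0.52 (SE 0.13, edgeR adjusted p = 0.0651), and 0.34 without Susp replicate 2 (SE 0.086, edgeR adjusted p = 0.0697).

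PILRB, an immunoglobulin-like receptor paired with the sialoglycan-binding PILRA, was lower in adherent cells. It was at 11.3, 21.7, 14.9 and 15.9 CPM in Sep, at 11.22, 13.5, 13.6 and 12.2 CPM in Susp and at 5.11, 4.91, 6.42 and 8.47 CPM in Adh libraries, so that Adh overlapped with neither group. Among all genes tested, Adh did not overlap with Susp for 11.4% and with Sep for 15.7%. PILRB fell by 1.04 on the log2 scale in Adh against Susp (SE 0.21, edgeR adjusted p = 0.0206) and had a log2 fold change of -1.38 in Adh against Sep (SE 0.21, edgeR adjusted p = 0.00116). The first call was lost without Adh replicate 1, 2 or 3 or Susp replicate 3, with log2 fold changes of -0.95, -0.94, -1.06 and -1.01 and edgeR adjusted p = 0.0892, 0.0721, 0.0550 and 0.0617, and the second was held in 20 of 20 alternatives. The 7 tested genes of lectins and receptors had medians of -0.45, 0.10 and -0.22 in Adh against Susp, Susp against Sep and Adh against Sep. PILRB shares exons with PILRA (165 counts over the REC-1 libraries) and with a readthrough transcript, so its counts may be divided between these genes. SIGLEC10, the receptor of CD24, was the highest of this list per length and was at 213.9 ± 12.2, 197.8 ± 15.4 and 183.5 ± 11.9 CPM in Sep, Susp and Adh cells (SD, n = 4 each). Adh differed from Sep by -0.22 on the log2 scale (SE 0.084, edgeR adjusted p = 0.148), and the 2 groups did not overlap, as for 15.7% of genes tested. Without Susp replicate 2 the difference was -0.22 (SE 0.066, edgeR adjusted p = 0.0433), which passed the adjusted p threshold but not the fold minimum.

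Among 12 Src family kinases and phosphatases around CD45, LCK was called as higher in both coculture fractions than in Sep cells, while the median log2 fold changes over the 12 were -0.05 in Susp and 0.17 in Adh cells. LCK, a kinase known from T-cells, was at 6.30, 6.53, 4.92 and 6.86 CPM in Sep, at 9.03, 11.3, 9.09 and 10.1 CPM in Susp and at 8.57, 10.2, 9.89 and 8.98 CPM in Adh libraries. The means were 6.15 ± 0.854, 9.87 ± 1.07 and 9.41 ± 0.766 CPM (SD, n = 4 each), and the Sep libraries lay below all others. Among all genes tested, Sep did not overlap with Susp for 11.3% and with Adh for 15.7%. LCK rose by 0.68 on the log2 scale in Susp (SE 0.15, edgeR adjusted p = 0.0424) and by 0.61 in Adh (SE 0.16, edgeR adjusted p = 0.0438).

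The LCK calls did not hold well. In Susp against Sep the call was kept without Adh replicate 3 or Susp replicate 1 and lost without any other single library, at log2 fold changes of 0.59 to 0.73 and edgeR adjusted p = 0.0515 to 0.159. In Adh against Sep it was kept without Sep replicate 1 or Susp replicate 2 and lost without any other, at 0.52 to 0.66 and edgeR adjusted p = 0.0540 to 0.125. The 10 T, NK and myeloid markers summed to 4.85 to 6.86 CPM in Sep, 6.18 to 8.56 CPM in Susp and 6.42 to 10.3 CPM in Adh libraries, of which CD3E had 2.34 to 6.42 CPM, whereas NCAM1 was at 0 in all groups. Their part in the LCK values was not tested. LYN, the B-cell kinase that was highest of the list per length, was at 888.3 ± 81.3, 839.4 ± 51.9 and 831.2 ± 30.5 CPM (SD, n = 4 each), and its log2 fold change between Adh and Sep was -0.10 (SE 0.078, edgeR adjusted p = 0.534). Without Susp replicate 2, PAG1 and BLK of this list passed the adjusted p threshold in Adh against Sep but not the fold minimum. Their log2 fold changes were 0.44 (edgeR adjusted p = 0.0332) and -0.35 (edgeR adjusted p = 0.0451), and they were named after their values were seen.

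None of 11 linkers and shedding proteases was called (edgeR; 1, 3 and 2 at an unadjusted p below 0.05 in Adh against Susp, Susp against Sep and Adh against Sep, and 0 with DESeq2). Ezrin (EZR), which links the tails of CD43 and PSGL-1 to actin and was the highest of the list per length, was at 406.6 ± 13.8 CPM in Sep, 464.0 ± 17.9 CPM in Susp and 470.0 ± 31.5 CPM in Adh cells (SD, n = 4 each). Each coculture library was above each Sep library for EZR. Among all genes tested, groups did not overlap for 11.3% in Susp against Sep and 15.7% in Adh against Sep. Against Sep and with all libraries, neither the log2 difference of 0.19 in Susp (SE 0.073, edgeR adjusted p = 0.222) nor that of 0.21 in Adh (SE 0.073, edgeR adjusted p = 0.119) passed the test. Without Susp replicate 2 they were 0.19 (SE 0.060, edgeR adjusted p = 0.187) and 0.21 (SE 0.056, edgeR adjusted p = 0.0226). The latter passed the adjusted p threshold but not the fold minimum. Of the mouse counterparts of these lists, 61 were tested in MS-5 cells and 0 were called (edgeR), against 0.205% of all mouse genes, with 5 at an unadjusted p below 0.05 and 0 with DESeq2, and their median log2 fold change was -0.02 against 0.00 for all mouse genes.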

How the data were processed

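Poly-A RNA of 16 libraries was prepared with an unstranded TruSeq kit and sequenced in pairs. The authors divided reads by species (Xenome), aligned each part with STAR 2.5.1b to GRCh38 or GRCm38, keeping unique alignments, and counted them over exons with featureCounts (Subread 1.5.2). The deposited values are raw counts per gene. Most genes with 1 to 20 counts had an even number (65.0% to 79.2% of human and 71.1% to 78.6% of mouse genes per library), so both mates of a pair appear to have been counted. Of the deposited columns, 20 belong to other samples and were not used.

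The members and lists were chosen with earlier results of these data known. Human counts of the 12 REC-1 libraries and mouse counts of 8 libraries were each fitted in 1 model with edgeR 4.0.16 (R 4.3.3; filterByExpr, TMM, quasi-likelihood F-test with Benjamini-Hochberg adjustment over 12861 and 12201 genes). Calls needed an adjusted p up to 0.05 and a change of 1.5 times or more. CPM are TMM-scaled, and log2 CPM used a prior count of 2. RPKM used merged exon lengths of the GENCODE annotation in hand, matched by gene identifier. Exon overlaps were read from it too, and it is not the ENSEMBL annotation that the authors counted over, so lengths and overlaps may differ from the counted features. The text names the members, their mouse counterparts, up to 8 called related genes per comparison by size, the highest gene per list by RPKM and the 5 genes most like SPN. Alternatives were DESeq2 1.42.0, RLE or upper-quartile factors, no low-count filter, no mitochondrial genes, no fold minimum, the replicate number as a block, 2 groups alone, each library left out and, chosen after seeing the data, halved counts. Some genes are not reported here and were left out of the lists. The fits were tested on simulated data. Floors cover counting error only, while SD and SE include differences between libraries.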

Additional observations from a re-analysis of the deposited data

Results flagged for a closer look

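In groups of 4 libraries, 21 sets of values of the members and their mouse counterparts were checked for a library far from the others, and chance alone flags about 5% of such sets. PTPRC was at 700.9 CPM in Susp replicate 2, against 1088 to 1126 CPM in the other Susp libraries. Mouse Spn was at 4.56 CPM in Adh replicate 2, against 6.21 to 6.32 CPM in the other Adh libraries.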

How the results depend on the processing

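Each fitted difference of SPN, Cd164, Cd24a and mouse Spn kept its direction in all alternatives run, and none of the members changed its side of the call rule where the fold minimum was kept. Without a fold minimum SPN also passed in Adh against Susp and in Susp against Sep, from which nothing is read, since SPN was chosen with these contrasts in view. Without Susp replicate 2, PTPRC and CD24 changed sign in Adh against Susp, to -0.07 and 0.02, and with each library left out PTPRC in Susp against Sep ranged from -0.03 to 0.15 SELPLG in Adh against Sep from -0.04 to 0.39 and in Adh against Susp from -0.49 to -0.06 (the latter without Adh replicate 4), and CD164 in Susp against Sep from -0.10 to -0.00074. Counts of calls moved more. For Adh against Susp, 100 genes were called, and 282 with DESeq2, 341 without the low-count filter and 51 to 165 with each library left out. For Susp against Sep, 94 were called, and 173 with DESeq2, 217 without the filter and 64 to 135 with each library left out. For Adh against Sep, 309 were called, and 527 with DESeq2, 503 without the filter and 143 to 519 with each library left out, the highest being without Susp replicate 2. In MS-5 cells 25 were called, and 94 without a fold minimum, 45 without the filter and 8 to 36 with each library left out. Of the related genes, 1 was called in Adh against Susp, and 3 with DESeq2, 3 without the filter and 0 to 1 with each library left out. In Susp against Sep, 1 was called, and 3 with DESeq2, 2 without the filter or a fold minimum, 0 with the 2 groups alone and 0 to 1 with each library left out. In Adh against Sep, 2 were called, and 3 without a fold minimum, 1 without the filter or with upper-quartile factors and 1 to 2 with each library left out. The gene added without a fold minimum was in both cases CD22, a lectin named after its values were seen (log2 fold changes of 0.43 and 0.39, edgeR adjusted p = 0.0236 and 0.0250 in Susp and in Adh against Sep). In MS-5 cells 0 related genes were called in each setting. The cause of these shifts was not tested. SELPLG had 14 to 102 counts per library.

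Samples with the same replicate number did not all deviate together (the correlation was over 0.1 for 1 of 4 pairs in Adh against Susp and in Susp against Sep, 3 of 4 in Adh against Sep and 2 of 4 in MS-5 cells), and not every sample correlated best with its own number. With the replicate number as a block, 281 genes and 3 related genes were called in Adh against Susp, 175 genes in Susp against Sep, 384 genes and 2 related genes in Adh against Sep and 45 genes in MS-5 cells.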
